A study of Mus musculus with 16 samples.

Results

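The homeostatic signature of microglia was followed through 9 genes, Tmem119, Olfml3, Sparc, Slco2b1, Crybb1, Cst3, Golm1, Fcrls and Selplg. They were chosen as known marker genes of unchallenged microglia and were found by symbol in the exon count table. All 9 were present, of 24411 genes in the table and 16354 with a read in at least 1 library, and all 9 passed the filter on low counts in each of the 6 comparisons made. Libraries came from bone marrow (BM) chimeras, in which WT C57BL/6J mice (CD45.2) were irradiated (950 cGy, at 6 weeks of age) and given congenic WT marrow that carried CD45.1 alleles. The labels allow 3.5 or 9 months between transfer and analysis without assigning either to a mouse, and the study's text gives 9 months. Mice 1 to 4 received the endotoxin lipopolysaccharide (LPS, 2.5 mg/kg, intraperitoneal) and were killed after 12 h, and mice 5 to 8 were not injected. From the brain of each mouse, Ly6C/G-negative CD11b+ cells with low CD45.1 (engrafted cells, the progeny of the transferred marrow) and with low CD45.2 (host microglia) were sorted, which gave 4 groups of 4 libraries. Host microglia had thus been irradiated and engrafted cells had not, in both challenge states, and no library came from a mouse without irradiation.

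Microglia are the resident macrophages of the brain parenchyma. They descend from yolk sac precursors and maintain themselves with little input from the marrow, and in the undisturbed brain they hold high levels of a set of transcripts that most other macrophages hold low. TGF-beta signalling and the transcription factor Sall1 are known to maintain that set, and endotoxin is known to lower it. The 9 genes span several roles. Tmem119, Selplg, Fcrls and Slco2b1 encode proteins of the cell surface, Olfml3, Sparc and Cst3 encode secreted proteins, Golm1 encodes a membrane protein of the Golgi, and Crybb1 encodes a crystallin whose task in microglia is not settled.

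The libraries held 395283 to 1203597 reads on genes, with a median of 820587.5. Levels are given as CPM, counts per 1000000 reads on genes after TMM scaling. A gene without a read in a library has an upper limit of 3 reads, which is 2.39 CPM in the deepest library and 8.41 CPM in the shallowest. The reads lie near the 3′ end of transcripts, so levels were compared between groups and not between genes. All 10 macrophage identity markers (among them Csf1r and Aif1) were above that limit in every library. Engrafted cells without LPS carried 178 to 317 CPM of 8 monocyte markers in sum and 268 to 1245 CPM of 10 neutrophil markers, whereas host libraries held at most 47.3 and 15.0 CPM. Mouse 5 stood apart in 2 lists, with 372 CPM of 10 neuron markers in its host library (42.3 to 45.6 in the other unchallenged hosts) and 284 CPM of 10 mural and fibroblast markers in its engrafted library (6.55 to 50.4 in the others). No call among the 9 genes was lost when both libraries of mouse 5 were left out. Sparc, Slco2b1 and Cst3 are also expressed by other brain cells. The 12 endothelial markers summed to 30.6 to 86.0 CPM in libraries without LPS and 88.5 to 154 CPM with LPS, in similar ranges for both populations. Slc2a1 was the highest (means of 28.0 to 33.2 CPM without LPS and 95.5 to 105 CPM with LPS). Pecam1 had means of 15.0 and 11.4 CPM in host microglia without and with LPS, and 1.60 and 22.6 CPM in engrafted cells. Flt1 (10.6 CPM) and Ly6c1 (8.94 CPM) had their highest group means in engrafted cells without LPS. Itm2a did not exceed 9.07 CPM in any library. The remaining markers, among them Cldn5, Cdh5 and Slco1a4, were at or below 6.74 CPM in every library. The 10 astrocyte markers summed to 158 to 343 CPM in host libraries and 16.8 to 86.0 CPM in engrafted libraries. Slc1a3 made up most of this difference (means of 206 and 177 CPM against 9.72 and 11.6 CPM). No other marker of that list had a group mean above 13.2 CPM (Aldoc, 13.2 CPM in host microglia and 9.79 CPM in engrafted cells, both without LPS). Gfap did not exceed 1.46 CPM in any library. The part of these cells in the levels of the 3 genes was not tested.

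The 9 genes together took 5.12 to 5.69% of all reads on genes in host microglia without LPS. The share was 3.87 to 3.96% in host microglia after LPS, 2.27 to 2.60% in engrafted cells without LPS, and 1.09 to 1.47% in engrafted cells after LPS. The 4 ranges did not overlap. Cst3 supplied most of these reads, so an index with equal weight for each gene was also formed, as the mean over the 9 genes of the log2 difference from the host microglia without LPS. It was -1.26 to -1.11 in host microglia after LPS, -1.45 to -1.23 in engrafted cells without LPS, and -2.76 to -2.34 in engrafted cells after LPS. By this index, the ranges of unchallenged engrafted cells and challenged host microglia overlapped, and engrafted cells after LPS lay below all others.

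**Figure D1:**
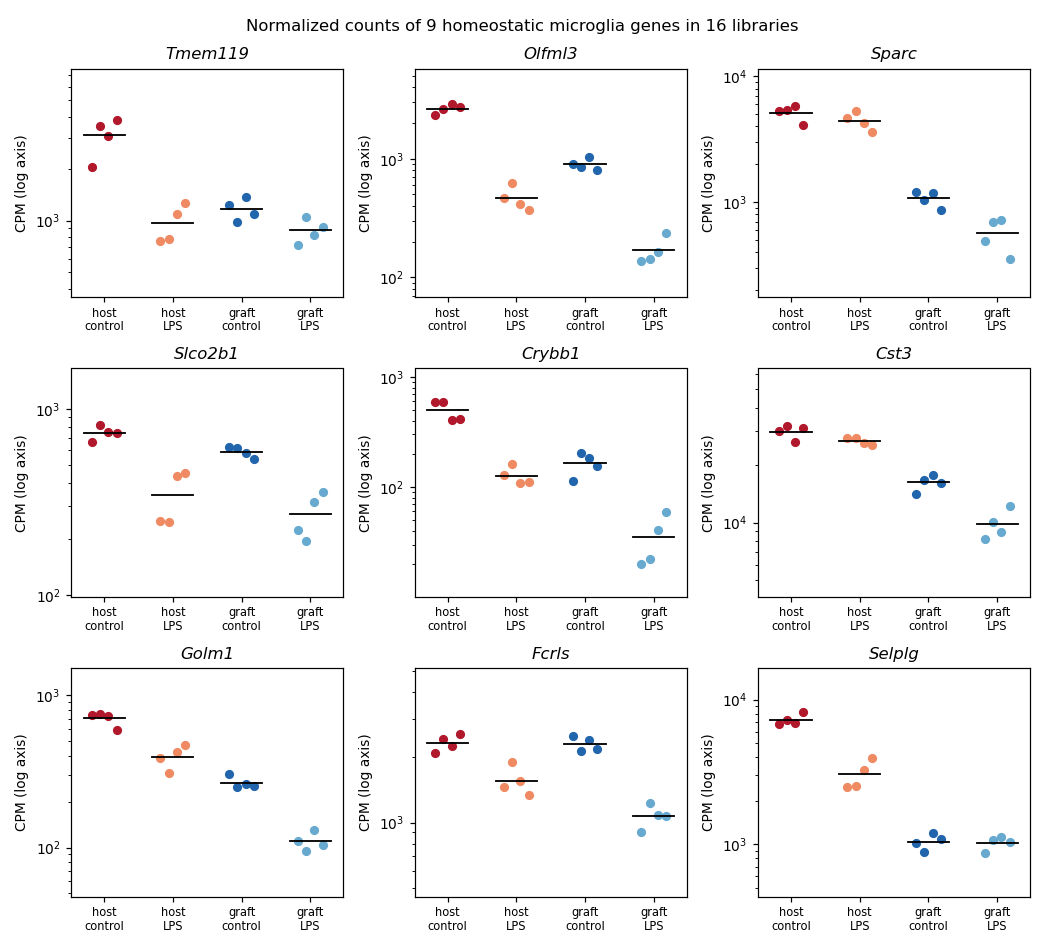
Level of each of the 9 genes in the 16 libraries, in CPM on a log axis whose range differs between panels. Each point is 1 library, drawn from left to right by mouse number within its group, and each line is the mean of 4. Golm1 steps down from left to right, Selplg stays between 870.2 and 1189 CPM in engrafted cells, and Fcrls is level between both populations without LPS.

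The first comparison asked whether cells that engrafted the brain months earlier hold the signature at the host's level. Without LPS, 7 of the 9 genes were lower in engrafted cells (edgeR quasi-likelihood test, adjusted p below 0.05), 6 of them by more than 2-fold, and none was higher. Among all 8042 genes tested, 13.7% passed as lower (4.73% by more than 2-fold) and 13.6% as higher. The median log2 fold change of the 9 genes was -1.36, beside 0.02 for all genes tested. The engrafted and host libraries did not overlap for 8 of the 9 genes, as for 26.6% of all genes. The largest differences were those of Selplg and Sparc, and Fcrls had a log2 fold change of 0.04. These are sorted populations measured in bulk, in which fewer cells of a type and less RNA per cell cannot be told apart.

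LPS lowered 7 of the 9 genes in host microglia and 7 of the 9 in engrafted cells, 5 of them by more than 2-fold in each population, and none passed as higher. Of all genes, 20.5% passed as lower in host microglia (10.4% by more than 2-fold) and 19.3% in engrafted cells (11.3% by more than 2-fold), and 19.2% and 19.4% as higher. Tmem119, Olfml3, Slco2b1, Crybb1, Golm1, Fcrls and Selplg fell in host microglia, while Olfml3, Sparc, Slco2b1, Crybb1, Cst3, Golm1 and Fcrls fell in engrafted cells. The median log2 fold change of the 9 genes was -1.12 in host microglia and -1.14 in engrafted cells, against 0.01 and -0.01 for all genes tested. Groups did not overlap for 7 genes in each population, as for 35.7% of all genes in host microglia and 35% in engrafted cells. The 8 monocyte markers were all above the detection limit in every engrafted library after LPS. They summed to 2114 to 6432 CPM there, against at most 47.3 CPM in host microglia. Hp was the largest part (mean of 2211 CPM, 19.6 CPM without LPS), and Ly6c2 had a mean of 716 CPM in cells sorted as Ly6C-negative. Ccr2 of the same list fell in engrafted cells, from a mean of 155 to 46.2 CPM, whereas the means of the others rose. The part of these markers in the values of engrafted cells was not tested. Whether a gene responded differently in the 2 populations was tested as an interaction over all 16 libraries, in which 2 of the 9 genes passed, Tmem119 and Selplg, both with the smaller fall in engrafted cells (5.88% of 8847 genes passed, 2.97% in that direction and 2.9% in the other).

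**Figure D2:**
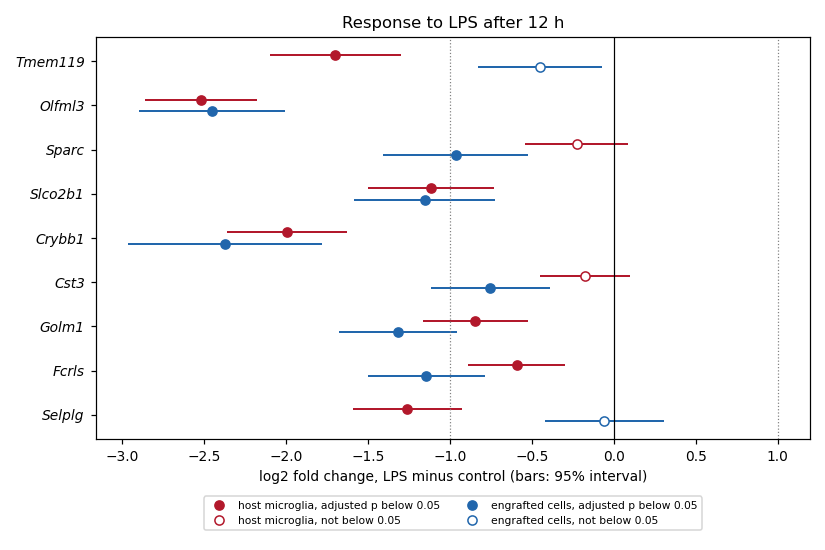
Response of the 9 genes to LPS as a log2 fold change, red for host microglia and blue for engrafted cells, with 95% intervals from the edgeR fit over 4 libraries per group. Filled points passed at an adjusted p below 0.05, dotted lines mark 2-fold. Tmem119 and Selplg lie apart between the populations (-1.70 and -0.45, -1.26 and -0.06). For each of the other genes, the intervals of both populations overlap.

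Among the surface proteins, Tmem119 encodes a single-pass membrane protein whose antibody is widely used to tell microglia from other macrophages. Its gene lies on chromosome 5, from 114243738 to 114250361 on the minus strand (mm9, as are all gene positions here). In host microglia, Tmem119 had 2047, 3554, 3106 and 3820.3 CPM without LPS (mice 5 to 8) and 760.4, 778, 1096 and 1256 CPM with LPS (mice 1 to 4). In engrafted cells it had 1228, 986, 1371 and 1087 CPM without LPS and 720.3, 1052, 829 and 911 CPM with LPS. Host microglia without LPS were thus high in all 4 libraries, mouse 5 least so, and the other 3 groups overlapped each other between 720.3 and 1371 CPM. Without LPS, the level in engrafted cells was 37.3% of the host mean, 2.57-fold lower (log2 fold change -1.36 ± 0.14, SE; adjusted p = 3.26e-08). LPS lowered Tmem119 3.25-fold in host microglia (-1.70 ± 0.19, adjusted p = 3.7e-07). In engrafted cells the log2 fold change was -0.45 ± 0.18 (adjusted p = 0.0573), which passed under 4 of the other settings and without mouse 2 or mouse 4 of the LPS group. The response differed between the populations by 1.24 ± 0.27 (interaction, adjusted p = 0.00553). After LPS, the populations did not differ past the threshold (log2 fold change -0.13, 95% interval -0.58 to 0.33, adjusted p = 0.769). Engrafted cells without LPS and host microglia with LPS did not differ past the threshold either (0.33, interval -0.04 to 0.69, adjusted p = 0.137). Within the mouse, the engrafted level was 0.277 to 0.600 of the host level in 4 unchallenged mice and 0.725 to 1.35 of it in 4 challenged mice.

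Selplg encodes PSGL-1, the ligand of P-selectin that leukocytes use to roll on endothelium, and its transcript is abundant in microglia. It lies on chromosome 5 from 114267807 to 114280510, on the minus strand, 17446 bases from Tmem119. In host microglia, Selplg had 6838, 7199, 6878 and 8218 CPM without LPS and 2473, 2538, 3291 and 3977 CPM with LPS. In engrafted cells it had 1014, 885, 1189 and 1085 CPM without LPS and 870.2, 1077, 1125 and 1040.1 CPM with LPS. All 8 engrafted libraries lay in one narrow band below every host library, and both host groups were apart from each other. Selplg had the largest deficit of the 9 genes, 6.72-fold without LPS (-2.75 ± 0.11, adjusted p = 4.37e-16). It fell 2.39-fold with LPS in host microglia (-1.26 ± 0.16, adjusted p = 1.71e-06). In engrafted cells the log2 fold change with LPS was -0.06, with an interval from -0.42 to 0.30 (adjusted p = 0.82), and the interaction was 1.19 ± 0.23 (adjusted p = 0.0014). The deficit of engrafted cells after LPS was 2.94-fold (-1.56 ± 0.21, adjusted p = 2.39e-05). Even so, engrafted cells without LPS remained 2.82-fold below host microglia with LPS (adjusted p = 5.02e-07). Monocytes and neutrophils also express Selplg. The 8 monocyte markers summed to 6432, 4483, 2957 and 2114 CPM in the engrafted cells of LPS mice 1 to 4, against at most 317 CPM without LPS. The 10 neutrophil markers summed to 510, 50.0, 409 and 412 CPM in the same libraries, against 268 to 1245 CPM without LPS. The part of these cells in the level of Selplg was not tested.

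Fcrls encodes an Fc receptor-like scavenger receptor of rodents, on chromosome 3 from 87054887 to 87067446, minus strand. Without LPS, Fcrls had 2093, 2425, 2251 and 2579 CPM in host microglia and 2507, 2138, 2407 and 2188 CPM in engrafted cells. With LPS it had 1465, 1896, 1549 and 1347 CPM in host microglia and 908, 1229.7, 1086 and 1071 CPM in engrafted cells. Without LPS the 2 populations were interleaved, and after LPS every engrafted library was below every host library. The baseline log2 fold change was 0.04, with an interval from -0.17 to 0.25 (adjusted p = 0.821), and the engrafted cells were the higher ones in 2 of 4 mice. This interval leaves out a 2-fold deficit such as 6 of the other 8 genes had. LPS lowered Fcrls 1.51-fold in host microglia (-0.59 ± 0.14, adjusted p = 0.00209) and 2.21-fold in engrafted cells (-1.14 ± 0.17, adjusted p = 2.34e-05). The difference between these responses was -0.56 ± 0.21 and did not pass (adjusted p = 0.115). After LPS, engrafted cells lay below host cells by a log2 fold change of -0.52 ± 0.18 (adjusted p = 0.0657), which passed with the mouse as a block (adjusted p = 0.0319), with library totals (0.0116), with DESeq2 (0.0233), with at least 10 reads in every library (0.0393) and in the fit of all 16 libraries (0.00895), and the ratio within the mouse was 0.620 to 0.795 in 4 of 4 mice.

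Slco2b1 encodes an organic anion transporter, on chromosome 7 from 106806314 to 106844319, minus strand. It ranged from 663 to 823 CPM in host microglia without LPS and from 536 to 628 CPM in engrafted cells without LPS. With LPS it ranged from 248 to 453 CPM in host microglia and from 196 to 356 CPM in engrafted cells. The unchallenged groups did not overlap but lay close together, and the challenged groups overlapped. The baseline difference was a log2 fold change of -0.28 ± 0.11 (adjusted p = 0.0682), and it passed without the host library of mouse 5 (adjusted p = 0.0481), without both libraries of mouse 5 (0.0422), with library totals (0.0198) and with no filter (0.0476). LPS lowered it 2.17-fold in host microglia (adjusted p = 4.82e-05) and 2.22-fold in engrafted cells (adjusted p = 0.000173), and the difference of -0.05 between these had an interval from -0.65 to 0.55. Fcrls and Slco2b1 were the closest pair of the 9 genes in the shape of their 4 group means (distance 0.40 on the log2 scale after centring each gene).

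Among the secreted proteins, Olfml3 encodes an olfactomedin-like matrix protein, on chromosome 3 from 103539317 to 103541924, minus strand. In host microglia, Olfml3 had 2329, 2616, 2886 and 2753 CPM without LPS and 462, 619, 414 and 366 CPM with LPS. In engrafted cells it had 896, 849.6, 1042 and 804 CPM without LPS and 136, 143, 164 and 238 CPM with LPS. No 2 of the 4 groups overlapped, and the order was host without LPS, engrafted without LPS, host with LPS, engrafted with LPS, with each step past the test. The baseline deficit was 2.83-fold (-1.50 ± 0.11, adjusted p = 4.44e-11). LPS lowered Olfml3 5.73-fold in host microglia (-2.52 ± 0.16, adjusted p = 1.16e-10) and 5.47-fold in engrafted cells (-2.45 ± 0.21, adjusted p = 2.4e-08), the largest falls of the 9 genes. The difference between the responses was 0.05, with an interval from -0.48 to 0.59, and the deficit after LPS was 2.71-fold (adjusted p = 0.000218). Engrafted cells with LPS were left with 6.44% of the mean level of host microglia without LPS.

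Crybb1 encodes beta-B1 crystallin, known first from the eye lens, on chromosome 5 from 112684840 to 112698605, plus strand. It ranged from 409 to 596 CPM in host microglia without LPS, from 109 to 162 CPM in host microglia with LPS, and from 113 to 204 CPM in engrafted cells without LPS. With LPS, engrafted cells had 20.1, 22.0, 40.3 and 58.9 CPM, from 18 to 31 reads per library, which makes these the least precise values of the 9 genes. Host microglia without LPS lay above, engrafted cells with LPS lay below, and the other 2 groups overlapped in between. The baseline deficit was 2.97-fold (-1.57 ± 0.18, adjusted p = 9.45e-08). LPS lowered it 3.98-fold in host microglia (-1.99 ± 0.18, adjusted p = 1.2e-08) and 5.18-fold in engrafted cells (-2.37 ± 0.28, adjusted p = 1.72e-06), and these did not differ past the threshold (-0.38, interval -1.11 to 0.36). Olfml3 and Crybb1 were the second closest pair in the shape of their group means (distance 0.48), and Crybb1 in engrafted cells with LPS was left with 7.02% of the mean of host microglia without LPS.

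For Olfml3 and Crybb1, the second closest pair in pattern, and for Fcrls, which was level at baseline, the 250 bases before the annotated start are shown for comparison. They come from RefSeq (GRCm38.p6, another build than that of the counts) and are written 5′ to 3′ on the strand of the gene. Capitals mark GAGGAA, a core that PU.1 and other ETS factors bind, and TGCTGA, part of the recognition sequence of MAF factors, each on either strand (TTCCTC and TCAGCA on the other). The windows are chr3:103738002-103738251 for Olfml3, chr5:112255570-112255819 for Crybb1 and chr3:87263525-87263774 for Fcrls.
Olfml3: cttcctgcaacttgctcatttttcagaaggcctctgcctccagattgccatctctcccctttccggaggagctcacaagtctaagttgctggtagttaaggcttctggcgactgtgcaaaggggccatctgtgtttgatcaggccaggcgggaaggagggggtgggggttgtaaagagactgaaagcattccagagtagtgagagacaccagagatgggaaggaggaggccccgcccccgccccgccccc
Crybb1: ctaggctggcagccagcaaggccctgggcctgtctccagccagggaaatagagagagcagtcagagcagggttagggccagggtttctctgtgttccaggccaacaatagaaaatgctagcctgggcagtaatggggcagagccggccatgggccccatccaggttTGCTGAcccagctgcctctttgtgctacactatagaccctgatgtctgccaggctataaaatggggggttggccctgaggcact
Fcrls: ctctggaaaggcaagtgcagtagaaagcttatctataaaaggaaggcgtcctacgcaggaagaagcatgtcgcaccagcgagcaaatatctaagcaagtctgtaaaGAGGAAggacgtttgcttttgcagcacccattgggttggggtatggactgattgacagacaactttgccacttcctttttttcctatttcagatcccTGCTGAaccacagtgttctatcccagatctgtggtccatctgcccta

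Of the 9 genes, 7 matched an entry of that table, with 9 windows in all because Slco2b1 has 3. GAGGAA was found in 3 of these 9 windows (Cst3, Fcrls and 1 of Slco2b1), and in 23.3% of 32851 windows of the same length. TGCTGA was found in 4 of 9 (Crybb1, Cst3, Fcrls and Sparc), and in 16.1% of all windows. A composite of ETS and IRF sites (GGAA, any 2 bases, GAAA, which can overlap GAGGAA), a MEF2 site (CTA, any 4 bases, TAG) and TGANTCA (AP-1, which can overlap TGCTGA) were found in none of the 9, and in 2.3, 3.2 and 6.75% of all windows. Olfml3 and Crybb1, the second closest pair in pattern, shared none of the 5 motifs in these windows. In the closest pair, Fcrls and 1 of the 3 windows of Slco2b1 held GAGGAA, as Cst3 did too. Whether motifs go with the pattern of levels was not tested. The matches describe letters in the reference and no binding was measured.

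Sparc encodes a secreted collagen-binding glycoprotein, on chromosome 11 from 55207661 to 55233582, minus strand. In host microglia, Sparc had 5339, 5407, 5774 and 4078 CPM without LPS and 4647, 5284, 4257 and 3583 CPM with LPS. In engrafted cells it had 1214, 1033, 1178 and 869 CPM without LPS and 489.9, 698, 719 and 353 CPM with LPS. Both host groups overlapped, and all 8 engrafted libraries were far below them. The baseline deficit was 4.61-fold (-2.21 ± 0.12, adjusted p = 2.2e-13). The response to LPS was -0.23 ± 0.15 in host microglia (adjusted p = 0.251) and -0.96 ± 0.21 in engrafted cells (adjusted p = 0.00118). The difference between the responses, -0.75 ± 0.26, did not pass (adjusted p = 0.0889) but passed with the mouse as a block (-0.78, adjusted p = 0.0166). After LPS the deficit was 7.72-fold (-2.95 ± 0.23, adjusted p = 5.7e-08), the largest of the 9 genes in that comparison, and the ratio within the mouse was 0.0986 to 0.169. Fibroblasts also express Sparc. The engrafted library of mouse 5, which had the most mural and fibroblast markers, had the highest Sparc of its group, and without mouse 5 the difference was a log2 fold change of -2.24.

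Cst3 encodes cystatin C, a secreted inhibitor of cysteine proteases such as the cathepsins, on chromosome 2 from 148697458 to 148701248, minus strand. It ranged from 26389 to 32012 CPM in host microglia without LPS and from 25617 to 27848 CPM with LPS. In engrafted cells it ranged from 14178 to 17810 CPM without LPS and from 8187 to 12189 CPM with LPS. The host groups overlapped, and each engrafted group was apart from the host groups and from the other. The baseline deficit was 1.78-fold (-0.83 ± 0.10, adjusted p = 2.02e-07), the one deficit past the test that was under 2-fold. LPS gave a log2 fold change of -0.17 ± 0.13 in host microglia (adjusted p = 0.318) and -0.75 ± 0.17 in engrafted cells (adjusted p = 0.00189), with a difference of -0.59 ± 0.20 (adjusted p = 0.0792). After LPS the deficit was 2.67-fold (adjusted p = 1.97e-05).

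Golm1 encodes a type II membrane protein of the Golgi, on chromosome 13 from 59736357 to 59777145, minus strand. In host microglia, Golm1 had 742, 748, 727 and 593 CPM without LPS and 384, 306, 423 and 467 CPM with LPS. In engrafted cells it had 304, 248, 262 and 252 CPM without LPS and 111, 95.2, 130.1 and 104 CPM with LPS. The 4 groups did not overlap, and the host library of mouse 8 lay apart from the other 3 of its group. The order was host without LPS, host with LPS, engrafted without LPS, engrafted with LPS, with each step past the test, whereas for Olfml3 the middle groups stood the other way round. The baseline deficit was 2.53-fold (adjusted p = 5.66e-09), and LPS lowered Golm1 1.80-fold in host microglia (-0.84 ± 0.15, adjusted p = 0.000145) and 2.49-fold in engrafted cells (-1.32 ± 0.17, adjusted p = 5.24e-06). The difference between these responses was -0.48 ± 0.24 (adjusted p = 0.265). After LPS the deficit was 3.53-fold (adjusted p = 4.25e-06).

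**Figure D3:**
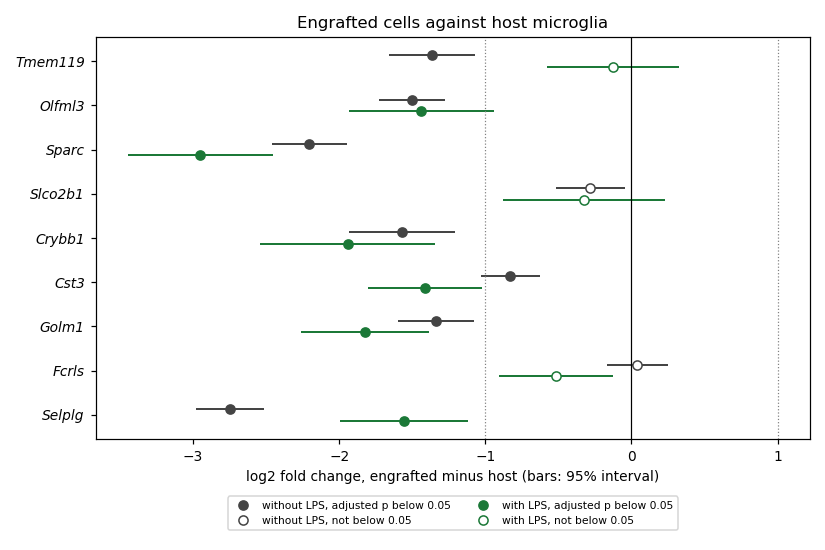
Log2 fold change of engrafted cells against host microglia without LPS (grey) and with LPS (green), with 95% intervals from the edgeR fit over 4 libraries per group. Filled points passed at an adjusted p below 0.05, dotted lines mark 2-fold. Tmem119 goes from -1.36 to -0.13 and Selplg from -2.75 to -1.56. Sparc, Crybb1, Cst3, Golm1, Fcrls and, slightly, Slco2b1 lie farther to the left with LPS. None of these passed the interaction test, as Tmem119 and Selplg did.

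After LPS, 6 of the 9 genes were lower in engrafted cells, all 6 by more than 2-fold (7.62% of 7843 genes passed as lower, and 4.34% by more than 2-fold), and none was higher (9.52%). They were Olfml3, Sparc, Crybb1, Cst3, Golm1 and Selplg. The median log2 fold change of the 9 genes was -1.44, against -0.01 for all genes tested, and groups did not overlap for 7 genes, as for 20.6% of all genes. Tmem119, Slco2b1 and Fcrls were the genes that did not pass. For Slco2b1 the interval was wide, from -0.88 to 0.23.

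Because the mean index put engrafted cells without LPS near host microglia with LPS, both were also compared directly, between different mice. Of the 9 genes, 4 were lower in the unchallenged engrafted cells (Sparc, Selplg, Cst3 and Golm1), 3 were higher (Olfml3, Slco2b1 and Fcrls), and Tmem119 and Crybb1 did not pass. Of all 7863 genes, 20.7% passed as lower and 22.2% as higher, and groups did not overlap for 7 of the 9 genes, as for 39.2% of all genes. Sparc was 3.95-fold lower (-1.98 ± 0.15, adjusted p = 2.75e-09) and Olfml3 2.02-fold higher (1.01 ± 0.16, adjusted p = 4.59e-05). Olfml3 was the 1 gene over 2-fold higher (as were 12.4% of all genes), and Sparc and Selplg the 2 over 2-fold lower (9.82%). Fcrls was 1.55-fold higher (adjusted p = 0.000993) and Slco2b1 1.78-fold higher (adjusted p = 0.0017). The overlapping ranges of the index thus held genes on both sides. Golm1 (-0.50, adjusted p = 0.0166) was no longer past the threshold without mouse 4 of the host LPS group (adjusted p = 0.0513) or without engrafted mouse 6 (adjusted p = 0.0543), Tmem119 passed without mouse 4 of the host LPS group (adjusted p = 0.0298), and Crybb1 passed without mouse 2 of that group or engrafted mouse 5 (adjusted p = 0.0258 and 0.0167). All comparisons above share libraries with one another, so their agreement or disagreement for a gene is not independent.

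Tmem119 and Selplg, the 2 genes with different responses, are neighbours, with no other gene of the table between them, and this was looked into after the values had been seen. From 200 kb before Tmem119 to 200 kb past Selplg the table has 11 genes, of which 7 could be tested for a difference in response. Cmklr1 passed as well, which encodes a receptor of chemerin and lies on the far side of Tmem119, from 114062364 to 114100399. Cmklr1 had means of 156 CPM in host microglia without LPS, 117 with LPS, 72.8 in engrafted cells without LPS and 155 with LPS. It thus fell in host microglia (-0.44, adjusted p = 0.0464) and rose in engrafted cells (1.06, adjusted p = 0.000149), with a difference of 1.48 (adjusted p = 0.000314). Coro1c, which encodes an actin-binding coronin and lies next to Selplg on its other side, rose in both populations (1.73 in host microglia and 1.33 in engrafted cells), with a difference of -0.41 that did not pass (adjusted p = 0.478). Iscu and Sart3 did not pass in either population, and Ficd, which could be tested in host microglia alone, did not pass there. The region thus held genes with opposite responses.

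**Figure D4:**
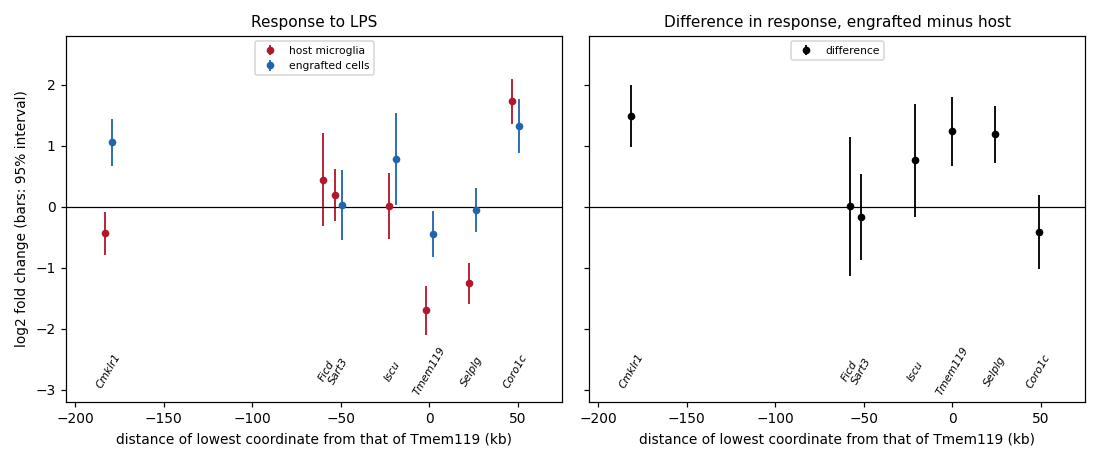
Left, log2 fold change with LPS (red for host microglia, blue for engrafted cells) of the genes within 200 kb of Tmem119 that could be tested, by the distance of the gene's lowest coordinate from that of Tmem119 in kb. Right, difference between the responses. Bars are 95% intervals, and on the left the points of both populations are set slightly aside from the gene's position. Tmem119, Selplg and Cmklr1 lie above 0 on the right (1.24, 1.19 and 1.48), and Coro1c lies below it (-0.41).

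For each of the 9 genes, the 2 genes nearest in the shape of their 4 group means were looked up among the 3784 genes whose mean reached 50 CPM (Euclidean distance over the 4 group means of log2 CPM after centring). Olfml3 was nearest to Mgll, the monoacylglycerol lipase, at 0.13, with means of 209 CPM in host microglia without LPS, 33.1 with LPS, 71.2 in engrafted cells without LPS and 12.5 with LPS. Its next was Capn3. Fcrls was nearest to Adnp (0.05) and Mbnl1, and Slco2b1 to Il21r (0.07) and Nfix. Cst3 was nearest to Mfap3 (0.16) and Neurl1a, Tmem119 to Clip1 (0.18) and Fbrsl1, and Crybb1 to Plxdc2 (0.22) and Lrrc3. Sparc (Rtn1 at 0.43, Lag3 at 0.61) and Selplg (H2-Oa at 0.67, Fam102b at 0.71) had the most distant nearest genes of the 9. Each pattern has 4 points from shared libraries and is given as a description.

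A wider set of 75 genes of microglia biology, grouped by role, was counted in the same comparisons. The genes singled out as leading are those with the largest changes at a mean of 50 CPM or more over the libraries compared. Without LPS, 42 of the 75 were lower in engrafted cells, 3 were higher and 30 did not pass, against 13.7% lower and 13.6% higher among all genes. The surface proteins had the largest share, with 22 of 27 lower and none higher, and the median log2 fold change of that list was -0.94. Of 10 genes of the TGF-beta pathway, 3 were lower, and of 11 transcription factors 3 were lower and 1 was higher. Sall3, a zinc finger factor related to Sall1, had a mean of 177 CPM in host microglia and 1.21 CPM in engrafted cells, the latter under the detection limit. Upk1b, a tetraspanin, had 237 against 4.66 CPM, the latter within the range of detection limits of those libraries (3.02 to 5.40 CPM). Slc2a5, the fructose transporter GLUT5, had 618 against 25.4 CPM. The 3 higher genes were the transcription factor Maf (0.64 ± 0.13, adjusted p = 0.000616), the AP-1 subunit Jun (0.40 ± 0.10, adjusted p = 0.0044) and the ribonuclease Rnase4 (0.33 ± 0.11, adjusted p = 0.0258). Perivascular macrophage markers, 8 in number, summed to 2059 to 2251 CPM in engrafted cells without LPS and 384 to 524 CPM in host microglia, and their part in these differences was not tested.

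With LPS, 51 of the 75 genes fell and 9 rose in host microglia, and 45 fell and 6 rose of 72 tested in engrafted cells. Of all genes, 20.5% fell and 19.2% rose in host microglia, and 19.3% and 19.4% did in engrafted cells. Of 15 secreted proteins, enzymes and other genes (the others include Jun, Marcks and Il10ra), 14 fell in host microglia and 13 in engrafted cells. Of 12 lysosome and complement genes, 5 fell and 3 rose in host microglia, and 3 fell and 2 rose in engrafted cells. Gpr34, a lysophospholipid receptor, went from 629 to 55.6 CPM in host microglia and from 315 to 21.1 CPM in engrafted cells. Hpgd, which degrades prostaglandins, went from 408 to 47.1 CPM and from 312 to 26.1 CPM. Slc2a5 fell in host microglia to 42.6 CPM, and Cx3cr1, the receptor of fractalkine, fell in engrafted cells from 3665 to 317 CPM. Genes that rose in host microglia were led by the complement receptor C5ar1 (2.54 ± 0.21, adjusted p = 3.51e-09), the transcription factor Runx1 (1.31 ± 0.16, adjusted p = 9.62e-07) and the protease gene Ctsl (1.02 ± 0.14, adjusted p = 4.82e-06). In engrafted cells, where C5ar1 (from 6.77 to 73.5 CPM, adjusted p = 3e-08) and Adora3 (from 9.95 to 42.2 CPM, adjusted p = 0.000275) rose more on the log2 scale (3.28 and 2.16) but had means under 50 CPM, they were led by Itgam, which encodes the CD11b used in the sort (1.66 ± 0.18, adjusted p = 4.63e-07), Ctsl (1.21 ± 0.18, adjusted p = 1.94e-05) and the lysosomal sterol carrier Npc2 (0.69 ± 0.17, adjusted p = 0.00295).

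**Figure D5:**
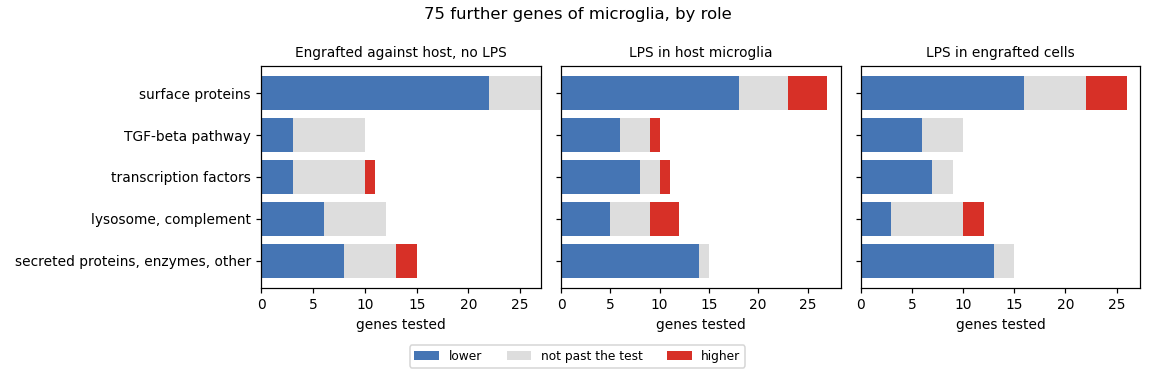
Number of genes lower (blue), not past the test (grey) and higher (red) at an adjusted p below 0.05 in 5 role lists, for engrafted against host cells without LPS and for LPS in each population. The horizontal axis counts genes tested. Surface proteins are lower in 22 of 27 at baseline. In the list of secreted proteins, enzymes and other genes, 14 and 13 of 15 fall with LPS.

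The response differed between the populations for 9 of the 75 genes, 3 with the higher response in engrafted cells and 6 with the lower one, against 2.97% and 2.9% of all genes. Adgrg1 (GPR56; 1.16 ± 0.31, adjusted p = 0.0237), Itgam (1.08 ± 0.21, adjusted p = 0.00159) and the ADP receptor P2ry12 (0.87 ± 0.21, adjusted p = 0.0123) were the 3, so that P2ry12 and Adgrg1 joined Tmem119 and Selplg in falling less in engrafted cells, from lower starting levels. P2ry12 had means of 2317 and 452 CPM in host microglia without and with LPS, and 628 and 229.6 CPM in engrafted cells. The lower responses were led by Cx3cr1 (-2.32 ± 0.25, adjusted p = 7.76e-07), the sialyltransferase St3gal6 (-2.02 ± 0.32, adjusted p = 0.000171) and the Ras exchange factor Rasgrp3 (-1.27 ± 0.31, adjusted p = 0.0135). After LPS, 32 of the 75 genes were lower in engrafted cells and none was higher (7.62% and 9.52% of all genes). The lower ones were led by Sall3 (105 CPM in host microglia and 3.05 CPM in engrafted cells, the latter under the detection limit), Sall1 (104 and 8.61 CPM) and Ecscr (311 and 29.5 CPM). Between engrafted cells without LPS and host microglia with LPS, 21 were lower (led by Sall3, the adenosine receptor Adora3 and C5ar1) and 30 higher (led by Hpgd, Gpr34 and Maf), against 20.7% and 22.2% of all genes.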

How the data were processed

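The 16 libraries came from 8 mice, with 10000 sorted cells each per the labels, and were prepared by a MARS-seq protocol that reads the 3′ ends of transcripts. The authors mapped reads to NCBI37/mm9 with HISAT (version 0.1.5 per the submitters' processing notes), kept unique reads and assigned them to exons of 1 RefSeq transcript model per gene, on the sense strand, with HOMER. The authors deposited these raw counts per gene without normalization. Removal of PCR duplicates is not given in the sources used here, so detection limits cover counting error only. The counts on genes were 64.0 to 76.5% of the mapped tags. No other gene of the table overlaps any of the 9.

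Groups and the mouse number came from the sample titles. Counts were analysed in R 4.3.3 with edgeR 4.0.16: filterByExpr (minimum count 10, minimum total 15), TMM scaling, glmQLFit with a prior count of 0.125, glmQLFTest, and Benjamini-Hochberg adjustment over all genes tested. A gene passed at an adjusted p below 0.05. Pairwise comparisons used their 8 libraries and the interaction all 16. Standard errors were the absolute log2 fold change divided by the root of F. The index and the nearest patterns used log2 CPM with a prior count of 2. No mouse term was fitted, since the study's methods mention none, and the mouse as a block was an alternative. Engrafted and host cells of a number come from 1 animal, per the series' design text. After removal of group means, Pearson's r between both libraries of a mouse was -0.0324 to 0.209 (above 0.1 in 3 of 8). The mean r of an engrafted library with host libraries of other mice in its challenge group was -0.0630 to 0.00883. The value within the mouse was the higher one in every mouse but mouse 6. Over 24 pairs of replicate libraries the chi-square per degree of freedom was 1.98 to 8.64, so none was a copy of another.

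The 9 genes and all lists were chosen with earlier results of these data known. Named genes beyond the 9 are, per comparison, the 3 genes per direction that changed most on the log2 scale among those of the wider lists that passed with a mean of at least 50 CPM, the 2 nearest in pattern (those of Golm1 are not reported here), and the neighbours of Tmem119. Scripts were tested on simulated data. Alternatives were RLE factors, library totals, DESeq2 1.42.0, limma-trend (limma 3.58.1), no filter, at least 10 reads in every library, a fit of all 16 libraries, the mouse block, each library left out in turn and, chosen after seeing the data, both libraries of mouse 5 left out.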

Additional observations from a re-analysis of the deposited data

Results flagged for a closer look

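Golm1 in the host microglia of unchallenged mouse 8 had 593 CPM, apart from the other 3 libraries of its group, of which the nearest had 727 CPM. It was the 1 library far from the rest among 36 groups of 4 examined (9 genes in 4 groups), where chance marks about 1 in 20. The response of Tmem119 to LPS differed between the populations, with a log2 fold change that was 1.24 higher in engrafted than in host cells (edgeR interaction, adjusted p = 0.00553). The response of Selplg differed in the same direction, by 1.19 (adjusted p = 0.0014).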

How the results depend on the processing

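Scaling by library totals moved the median of all genes between engrafted and host cells with LPS by -0.15 (log2), and by less than 0.1 in the other comparisons. The counts of the 9 genes that passed or were over 2-fold moved by at most 1 gene in any comparison under any setting. The 1 gene over 2-fold higher in unchallenged engrafted cells than in challenged host microglia (Olfml3) became 0 with library totals and with no filter, and 0 to 1 with a library left out. The 0 genes with a greater fall in engrafted cells became 1 with library totals (Cst3, adjusted p = 0.0184), 1 with the mouse as a block (Sparc) and 0 to 1 with a library left out. With the mouse as a block, Fcrls after LPS also passed, and no other call of the 9 genes changed. Values near 0 changed sign. The baseline log2 fold change of Fcrls became -0.0414 with library totals, -0.0169 with no filter and -0.0376 without mouse 5, and ranged from -0.0124 to 0.0853 with a library left out. With a library left out, Selplg with LPS in engrafted cells ranged from -0.122 to 0.0344, and Tmem119 between populations with LPS from -0.235 to 0.0289. The interaction of Olfml3 became -0.0149 with library totals and ranged from -0.15 to 0.216 with a library left out, and that of Slco2b1 became 0.0203 without mouse 5 and ranged from -0.211 to 0.132. The cause was not tested. Over all genes, those over 2-fold lower in engrafted cells without LPS numbered 380, with 172 to 559 over the settings, and those higher 503, with 230 to 895. Ranges were as wide for LPS in engrafted cells (431 to 1337 lower, main 861, and 385 to 1049 higher, main 775), LPS in host microglia (490 to 1191, main 853, and 381 to 848, main 631), engrafted against host with LPS (136 to 495, main 340, and 245 to 857, main 528), unchallenged engrafted against challenged host (438 to 1089, main 772, and 501 to 1688, main 974) and the interaction (110 to 262, main 221, and 141 to 289, main 217), with fewer or more genes tested under the stricter filter and none. Depth limits Crybb1 most, at 18 to 31 reads in engrafted cells with LPS.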

Other observations

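The 4 challenged mice were not alike in the strength of the response. Summed over 9 LPS-induced genes (Lcn2, Saa3, Tnf, Il1b, Ccl5, Nfkbia, Tnfaip3, Acod1 and Ccl3), host microglia of mice 1 to 4 held 18381.5, 20123.5, 9665 and 8341 CPM. Engrafted cells held 51182, 43958, 33248 and 29439 CPM. Without LPS the sums were 3926 to 4616 CPM and 3146 to 3559 CPM. Saa3 was the largest part of the engrafted sum with LPS (mean of 22744 CPM, 1733 CPM in host microglia). Tnf (406 against 1359 CPM) and Ccl3 (2388 against 4872 CPM) were lower in engrafted cells, and Lcn2, Il1b, Ccl5 and Acod1 were higher. The sums thus compare mice within a population. In host microglia, Tmem119 (760.4 and 778 CPM), Selplg (2473 and 2538 CPM) and Slco2b1 (250.01 and 248 CPM) were lowest in mice 1 and 2, and were 1096 and 1256, 3291 and 3977, and 436 and 453 CPM in mice 3 and 4. Golm1 was likewise lowest in mice 1 and 2 (384 and 306 CPM, against 423 and 467 CPM in mice 3 and 4). Olfml3 and Crybb1 were not lowest there, with 462 and 619 CPM and 127 and 162 CPM in mice 1 and 2. In mice 3 and 4 they had 414 and 366 CPM and 109 and 109.9 CPM. Sparc and Cst3 were highest in mice 1 and 2, and Fcrls was neither lowest nor highest in both. In engrafted cells, Slco2b1, Olfml3 and Crybb1 were lowest in mice 1 and 2, where Slco2b1 had 225 and 196 CPM against 316 and 356 CPM in mice 3 and 4. Tmem119, Selplg, Fcrls, Sparc, Cst3 and Golm1 were not lowest in both of mice 1 and 2 there. With 4 mice, no relation was tested, and the pattern was seen after the values.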
